A study of Mus musculus with 16 samples.

Results

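Chondrocyte-enriched cells of heterozygous Notch2tm1.1Ecan mice were compared with cells of wild type littermates after both had been exposed to TNFα. The comparison rests on 8 of the 16 RNA-Seq libraries of the series, 4 from control and 4 from Notch2tm1.1Ecan cells, chosen by genotype and treatment as labelled. Of the 55414 gene identifiers counted, 19227 reached 10 counts over the 8 libraries and were tested. The cells came from the epiphyses of newborn mice of both sexes, were pooled and cultured, and received TNFα (50 ng/ml) over 6 h, with serum removed in both of these groups. The other 8 libraries hold the same genotypes after vehicle for 6 h, and they are used below only to set a genotype difference beside that found without TNFα.

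The Notch2tm1.1Ecan allele carries a stop codon ahead of the PEST domain, the part of NOTCH2 that marks the protein for degradation, so the protein made from it is stable. It is a model of Hajdu Cheney syndrome, and it is present in every cell type of the mouse rather than in chondrocytes alone. Each mutant cell also holds a wild type allele. The cells were not purified, and nothing in the labels says whether the 4 replicates of a group were separate pools of mice, so the p values measure the spread between these libraries.

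NOTCH receptors are cleaved when they meet a ligand of the Jagged or Delta-like families on a neighbouring cell, and the freed intracellular domain joins RBPJκ on DNA to induce targets such as the Hes and Hey genes. In cartilage Notch signaling is known to restrain the chondrocyte program, and TNFα, acting in large part through NF-κB, is known to lower matrix synthesis and to raise cytokines and matrix-degrading enzymes. The data here bear on how cells with the 2 genotypes differ when TNFα is present in both.

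The 8 libraries held 3439726 to 19220459 counts on genes, and 8.811% to 12.138% of counted read pairs over the series were assigned to no gene. Mutant TNFα replicate 4 was the shallowest, and the first principal component, 43.49% of the variance of the 8 libraries, set it apart from the other 7, whereas the second, 20.59%, separated the genotypes among those 7. Chondrocyte markers were abundant in all 8 libraries, with Col2a1 at a mean of 26940 CPM (counts per 1000000 counts on genes) in control and 14480 CPM in mutant cells. Among the vehicle libraries, control replicate 4 held 447 CPM of Icam1, an adhesion molecule induced by TNFα, against 34.6 to 41 CPM in the other 3 control vehicle libraries and 2272 to 2780 CPM in the control TNFα libraries. The cause was not tested, and a vehicle call that changes without this library is given both ways. CPM values are scaled by factors of the trimmed mean of M values (TMM), which allow for differences in RNA composition, over all 16 libraries, and levels in CPM are not corrected for gene length.

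With TNFα, 1912 genes differed between genotypes at an adjusted p under 0.05 in the quasi-likelihood test of edgeR, with p values adjusted by Benjamini and Hochberg's method, and such genes are said below to have risen or fallen in mutant cells. Of the genes tested, 1083 (5.63%) rose and 829 (4.31%) fell. Every count of list members called with TNFα below is to be read beside these shares. Of the genes called, 272 differed by 1 or more on the log2 scale (1.41% of the genes tested), of which 196 rose and 76 fell. The median log2 fold change over all genes tested was -0.01, and the median size among the genes called was 0.452, so most differences were of modest size. Protein-coding genes made up 241 of the 272, and 245 of the 272 were outside the osteoarthritis and phagosome heat maps of the study, which are left aside here. The values of the 4 control and the 4 mutant libraries did not overlap in 2945 genes (15.3% of those tested).

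Notch2 itself, at chr3:97920800-98057677 in GRCm39, was the targeted gene. Its level was 186, 135, 126 and 166 CPM in control replicates 1 to 4 and 206, 206, 234 and 232 CPM in mutant replicates 1 to 4, and the groups did not overlap (log2 fold change 0.53 ± 0.12, adjusted p = 0.0178; errors of fold changes are standard errors, and a value printed directly before an adjusted p is a log2 fold change, mutant minus control, unless named otherwise). That call was lost without mutant replicate 3 (log2 fold change 0.48, adjusted p = 0.0567) and without mutant replicate 4 (0.50, adjusted p = 0.108), and also when 1 surrogate variable was added to the fit (0.51, adjusted p = 0.0966). Counts per gene do not tell the mutant transcript from the wild type one. With vehicle the difference was 0.23, adjusted p = 0.283.

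Heyl, a transcriptional repressor induced by Notch, was close to the floor of detection in control cells. The control libraries held 0.0780, 0.543, 0.286 and 0.205 CPM and the mutant libraries 1.95, 1.66, 1.14 and 1.95 CPM (log2 fold change 2.46 ± 0.42, adjusted p = 0.000144). Every mutant library was above every control library. Of the 22 tested members of a list of Notch receptors, ligands and targets, 7 rose and none fell, beside 5.63% of all genes, with a median log2 fold change of 0.21, or 0.11 when members with a group under 3 counts a library were set at their bound. The 7 were Heyl, Jag1, Notch3, Notch1, Notch2, Maml2 and Lfng, so no Hes or Hey gene of the list other than Heyl was called. Without mutant replicate 3, 4 of them rose, and Notch2, Maml2 and Lfng were no longer called. Jag1, a Notch ligand, rose from 66.4 ± 2.06 to 102 ± 4.37 CPM (mean ± SD, n = 4; log2 fold change 0.63 ± 0.06, adjusted p = 1.9e-08), and Notch3, a receptor of smooth muscle and pericytes, rose from 22.0 ± 2.67 to 39.5 ± 2.94 CPM (log2 fold change 0.87 ± 0.09, adjusted p = 4.13e-08). Notch1 rose (0.48, adjusted p = 0.00487) with overlapping groups, and Rbpj, which encodes RBPJκ, was at 243 ± 6.82 CPM in control and 214 ± 29.7 CPM in mutant cells (-0.15, adjusted p = 0.23).

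The gene with the lowest p value was Adamts15, at chr9:30810451-30833863, which encodes a secreted metalloproteinase that cleaves the proteoglycans aggrecan and versican. Control libraries held 12.7, 14.4, 14.2 and 13.6 CPM and mutant libraries 53.2, 55.6, 59.4 and 62.6 CPM (log2 fold change 2.07 ± 0.08, adjusted p = 3.66e-16). The lowest mutant library lay far above the highest control library. With vehicle, the means were 2.61 CPM in control and 4.40 CPM in mutant cells, and the genotype difference was 0.76, adjusted p = 0.221, or 1.28, adjusted p = 0.000107 without control vehicle replicate 4. The difference between the TNFα and the vehicle contrast did not pass the test (1.30, adjusted p = 0.11, and 0.75, adjusted p = 0.112 without that library).

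In the wider family of ADAMTS proteases, which cut proteoglycans and process procollagens, 8 of 18 tested members rose and none fell, with a median log2 fold change of 0.29. Adamts12, which is known to act on the cartilage protein COMP, rose from 26.2 ± 3.47 to 54.5 ± 3.12 CPM (log2 fold change 1.06 ± 0.08, adjusted p = 4.36e-10). The procollagen N-proteinases Adamts14 (0.50, adjusted p = 1.68e-05) and Adamts2 (0.38, adjusted p = 4.47e-05) rose less. Adamts5, the major aggrecanase of mouse cartilage, was at 183 ± 15.3 CPM in control and 172 ± 3.67 CPM in mutant cells (-0.07, adjusted p = 0.609). With vehicle, 4 of 17 members rose, and 7 did without control vehicle replicate 4.

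**Figure D1:**
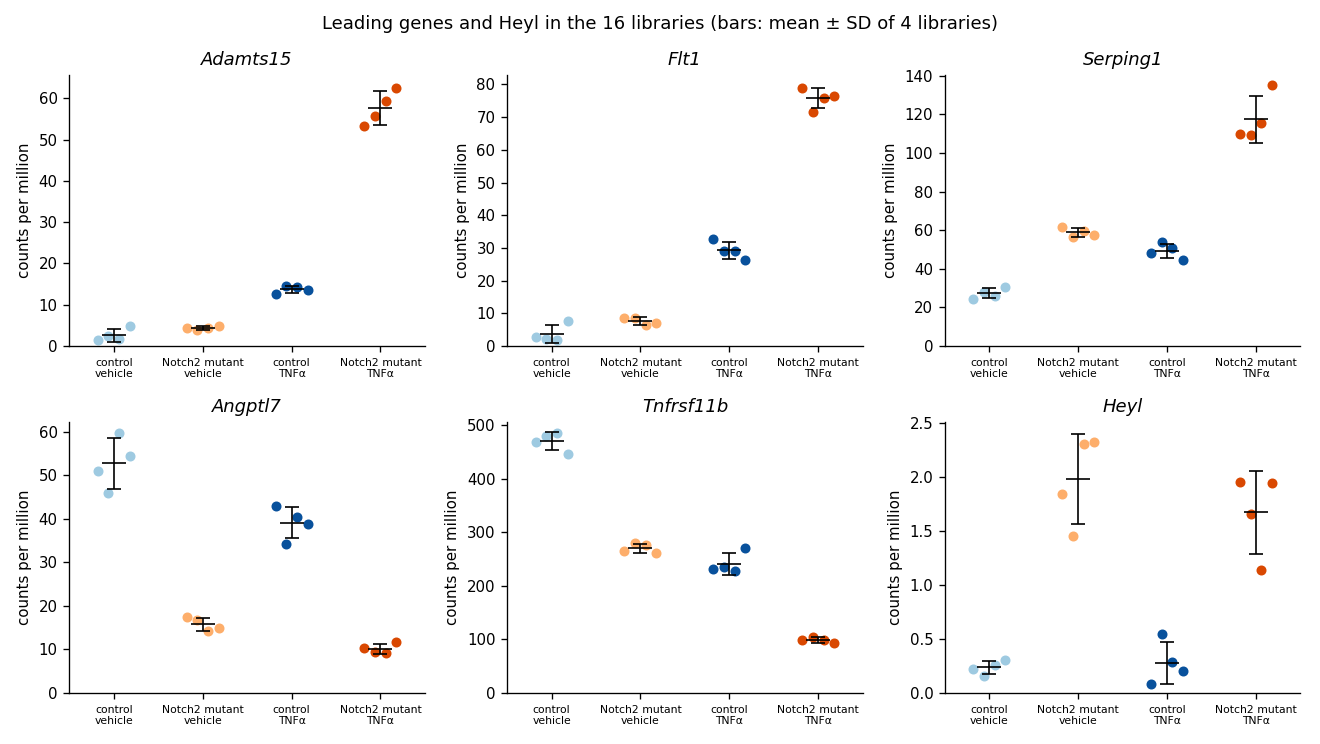
Levels of Adamts15, Flt1, Serping1, Angptl7, Tnfrsf11b and Heyl in CPM (linear y axes from 0) in the 16 libraries, by genotype and treatment; points are libraries, and bars give the mean ± SD of 4 libraries. With TNFα the 4 mutant libraries lie above the 4 control libraries for Adamts15, Flt1, Serping1 and Heyl and below them for Angptl7 and Tnfrsf11b.

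Flt1, at chr5:147498414-147662826, encodes VEGF receptor 1, and soluble forms of it bind VEGF away from other receptors. It was at 32.6, 29.0, 29.0 and 26.4 CPM in control and at 79.0, 71.7, 75.9 and 76.5 CPM in mutant libraries (log2 fold change 1.39 ± 0.07, adjusted p = 1.61e-13). The groups were well apart. The vehicle difference was 1.06, adjusted p = 0.237, or 1.69, adjusted p = 2.51e-07 without control vehicle replicate 4, and the test of the difference between the contrasts was not passed (0.36, adjusted p = 0.858, and -0.32, adjusted p = 0.655 without that library).

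Of 15 tested genes of the VEGF and angiopoietin axis, 8 rose and 1 fell (median log2 fold change 0.47). Tek, the angiopoietin receptor TIE2, rose from 7.76 ± 0.869 to 15.1 ± 2.14 CPM (log2 fold change 0.93 ± 0.12, adjusted p = 2.65e-06). The VEGF co-receptor Nrp1 (0.47, adjusted p = 3.5e-05) and the TIE2 ligand Angpt1 (0.40, adjusted p = 0.00033) rose, while Nrp2, the most abundant member per kb of exon, was at 1674 ± 126 and 1588 ± 41.1 CPM (-0.06, adjusted p = 0.651). The member that fell was the ligand Vegfa itself, named after its value was seen, from 104 ± 13.0 to 83.8 ± 1.35 CPM (-0.30, adjusted p = 0.00483).

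Some endothelial markers rose too, on a list that shares Tek, Kdr and Tie1 with the VEGF and angiopoietin list. Of 15 tested, 4 rose and none fell, 2 rose without mutant replicate 1 or without mutant replicate 2, and the summed level of the list was 83.3 to 120.2 CPM in the control libraries and 93.0 to 111 CPM in the mutant libraries, so the sums overlapped. The 4 that rose were Tek, Cd93, Kdr and Cdh5, of which Tek and Kdr are on both lists. Cd93 rose from 1.66 ± 0.373 to 3.29 ± 0.656 CPM, a call lost without mutant replicate 2 (adjusted p = 0.0614). Kdr, VEGF receptor 2, was at 0.240 ± 0.228 and 0.959 ± 0.464 CPM (log2 fold change 2.03 ± 0.53, adjusted p = 0.0106), a call lost without mutant replicate 1 (adjusted p = 0.102). Cdh5, or VE-cadherin, was at 0.674 ± 0.190 and 1.59 ± 0.634 CPM (log2 fold change 1.19 ± 0.36, adjusted p = 0.0312), a call lost on leaving out any of 5 libraries (control 1, 3 and 4 and mutant 1 and 2), with log2 fold changes of 0.88 to 1.45 over single omissions. Cd34, which fibroblasts share, was the most abundant per kb of exon, at 84.8 ± 14.7 and 65.5 ± 5.75 CPM (-0.34, adjusted p = 0.114), and it was lower at an adjusted p of 1.73e-05 without control replicate 4. In the vehicle contrast 9 of 16 endothelial markers rose and 1 fell, and 6 rose and 1 fell without control vehicle replicate 4. The median log2 fold change of the list was 1.08 with vehicle, 1.09 without that library, and 0.61 with TNFα. Flt1 stood at a mean of 29.3 CPM in control cells with TNFα, in which Kdr and Cdh5 were under 1 CPM. The part of endothelial cells in the rise of Flt1 was not tested.

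Several collagens of basement membranes, the sheets that surround vessels, nerves and many cells, were higher in mutant cells with TNFα. Of 25 tested basement membrane genes, 10 rose and 3 fell (median log2 fold change 0.28). With vehicle 10 also rose and 3 fell, and the median was 0.02, or 0.12 without control vehicle replicate 4. Col4a1, a chain of collagen IV, was at 491, 452, 454 and 490.5 CPM in control and 1081, 1077, 1150 and 916 CPM in mutant libraries (log2 fold change 1.18 ± 0.07, adjusted p = 1.64e-12). Its partner Col4a2 rose from 526 ± 32.6 to 975 ± 99.4 CPM (log2 fold change 0.91 ± 0.07, adjusted p = 3.81e-10). Other vessel-associated collagens rose to a similar degree, Col15a1 from 28.7 ± 1.57 to 58.3 ± 3.56 CPM (log2 fold change 1.05 ± 0.07, adjusted p = 2.89e-11) and Col18a1, the precursor of endostatin, from 242 ± 15.2 to 479 ± 46.8 CPM (log2 fold change 1.01 ± 0.07, adjusted p = 3.69e-11). Hspg2, which encodes the proteoglycan perlecan of cartilage and basement membrane, spread widely in control cells, at 3131, 1581, 1664 and 2663 CPM, and was at 3266, 2844, 3576 and 3635 CPM in mutant cells (0.57, adjusted p = 0.268).

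Collagen VI, the microfibril-forming collagen of the pericellular matrix, was higher in mutant cells. The summed level of its genes was 7167 to 8270 CPM in the control libraries and 11080 to 12230 CPM in the mutant libraries, so that the ranges did not overlap, and 5 of 6 genes rose (median log2 fold change 0.84). The abundant chains Col6a1 (3375 ± 67.9 to 4952 ± 282 CPM, 0.57, adjusted p = 1.11e-07) and Col6a2 (2343 ± 49.7 to 3680 ± 241 CPM, 0.67, adjusted p = 8.59e-09) rose by less than Col6a6 (7.92 ± 1.52 to 20.6 ± 3.34 CPM, 1.4, adjusted p = 1.03e-07). Col6a4 was low at 1.21 ± 0.559 CPM in control and 4.34 ± 0.602 CPM in mutant cells (log2 fold change 1.91 ± 0.26, adjusted p = 6.91e-06), and Col6a5 lower still (0.632 and 1.23 CPM, 0.96, adjusted p = 0.0939). Col6a3, named after its value was seen, was the other gene that rose (adjusted p = 0.038). That call was lost without control replicate 4 or any 1 of the 4 mutant libraries (adjusted p from 0.06065 to 0.09469). With vehicle, 4 of the 6 rose.

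Among 22 tested genes of elastic fibres and their crosslinking enzymes, 12 rose and 2 fell (median log2 fold change 0.33), and 1 fell without mutant replicate 1. Fbln2, encoding fibulin 2, rose from 729.5 ± 34.9 to 1333 ± 72.7 CPM (0.89, adjusted p = 5.17e-11), and Mfap4, a microfibril-associated protein, rose from 5.44 ± 0.762 to 14.1 ± 1.21 CPM (1.38, adjusted p = 7.78e-09). Emilin2 rose by 0.62 (adjusted p = 1.43e-08). The lysyl oxidase Loxl4, which crosslinks collagen and elastin, went the other way, from 353 ± 29.6 to 181 ± 6.12 CPM (log2 fold change -0.95 ± 0.07, adjusted p = 3.69e-11). Ltbp3, a binding protein of latent TGFβ, was at 812 ± 16 and 775 ± 48.6 CPM (-0.05, adjusted p = 0.693).

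The cartilage matrix program was lower in mutant than in control cells. Of 25 tested genes of this list, 21 fell, beside 4.31% of all genes, and 2 rose (1 without control replicate 2 or 3 or mutant replicate 1, 2 or 3), with a median log2 fold change of -0.84 with TNFα and -0.59 with vehicle. The summed level was 38430 to 45300 CPM in the control libraries and 21970 to 24220 CPM in the mutant libraries. Col2a1, the main fibrillar collagen of cartilage, was at 25840, 26430, 25330 and 30170 CPM in control and 15080, 14430, 14830 and 13590 CPM in mutant libraries (log2 fold change -0.88 ± 0.07, adjusted p = 1.93e-10). Matn1, or matrilin 1, which links collagen fibrils to proteoglycans, was at 193, 199, 194 and 214 CPM in control and 101, 88.5, 83.0 and 86.6 CPM in mutant libraries (log2 fold change -1.14 ± 0.07, adjusted p = 1.64e-12). All 4 mutant libraries were below all 4 control libraries for both genes.

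Ucma, a Gla-rich protein of cartilage matrix, fell from 43.8 ± 2.33 to 18 ± 2.28 CPM (log2 fold change -1.25 ± 0.09, adjusted p = 3.68e-11), and the secreted cytokine-like protein Cytl1 fell from 30.9 ± 1.4 to 16.1 ± 0.233 CPM (log2 fold change -0.92 ± 0.08, adjusted p = 3.35e-09). Sox9, the master transcription factor of chondrocytes, and Acan, encoding aggrecan, were named after their values were seen; both fell, with log2 fold changes of -0.89 and -0.82 (adjusted p = 0.049 and 0.0195). The call of Sox9 was lost without control replicate 2 or any one of the 4 mutant libraries (adjusted p from 0.0708 to 0.133), and that of Acan without mutant replicate 1 (adjusted p = 0.0573) or mutant replicate 4 (adjusted p = 0.0715). Matn4 did not pass the test, at 27.9 ± 2.82 and 29.1 ± 1.15 CPM (0.07, adjusted p = 0.697). In RNA from a culture of several cell types, fewer chondrocytes and less RNA of a gene per chondrocyte cannot be told apart.

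Genes of hypertrophic chondrocytes, the enlarged cells that mineralize their matrix, did not move as one. Of 13 tested, 1 rose and 5 fell (median log2 fold change -0.21). Spp1, encoding osteopontin, fell from 1657 ± 157 to 1222 ± 123 CPM (-0.42, adjusted p = 0.000228), and Enpp1, which makes the mineralization inhibitor pyrophosphate, fell from 69.8 ± 4.97 to 54.5 ± 2.59 CPM (-0.34, adjusted p = 0.000889). Alpl, the phosphatase that removes pyrophosphate, was the gene that rose (0.46, adjusted p = 0.00964), with overlapping groups and a call lost without control replicate 3 (adjusted p = 0.0556) or mutant replicate 3 (adjusted p = 0.0775). The transcription factor Runx3 fell (log2 fold change -0.51, adjusted p = 0.0166), a call lost without control replicate 4 (adjusted p = 0.0591) or mutant replicate 1 (adjusted p = 0.0862). Col10a1, the collagen that defines these cells, was at 70.5 ± 4.54 and 63.4 ± 4.22 CPM (-0.13, adjusted p = 0.276). The count of falls was 2 without mutant replicate 1 and 3 without mutant replicate 2 or control replicate 4.

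Angptl7, at chr4:148579639-148584923, showed the lowest p value among the genes that fell. It encodes a secreted angiopoietin-like glycoprotein known from the cornea, the trabecular meshwork and the superficial zone of articular cartilage. Control libraries held 42.9, 34.3, 40.3 and 38.9 CPM and mutant libraries 10.3, 9.42, 9.15 and 11.7 CPM (log2 fold change -1.97 ± 0.10, adjusted p = 6.84e-14). No mutant library came near the control range, and the fall was of like size with vehicle (-1.75, adjusted p = 3.29e-12).

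The articular surface list, which includes Angptl7, held 2 rises and 7 falls among 16 tested genes (median log2 fold change -0.14). Prg4, the lubricin of the joint surface, fell from 571 ± 54.3 to 383 ± 23.2 CPM (log2 fold change -0.56 ± 0.07, adjusted p = 1.12e-06). Cilp, an intermediate layer protein, rose from 37.7 ± 1.72 to 67.7 ± 4.91 CPM (log2 fold change 0.87 ± 0.07, adjusted p = 5.85e-10), and Thbs4, a thrombospondin of tendon and joint, rose from 174 ± 10.2 to 259.6 ± 19.9 CPM (log2 fold change 0.59 ± 0.06, adjusted p = 2.1e-07). Abi3bp, the most abundant member per kb of exon that did not pass the test, was at 931 ± 55.4 and 867 ± 51.8 CPM (-0.09, adjusted p = 0.463). Of 5 angiopoietin-like genes tested, Angptl2 rose from 129.8 ± 4.24 to 180.2 ± 6.23 CPM (log2 fold change 0.49 ± 0.06, adjusted p = 7.91e-07), and Angptl6 fell from 24.0 ± 3.35 to 17.4 ± 2.81 CPM (-0.47, adjusted p = 0.0114), a call lost without mutant replicate 3 (adjusted p = 0.0552). Angptl4, a lipase inhibitor, was at 676 ± 59.7 and 678 ± 19.1 CPM (0.02, adjusted p = 0.901).

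Tnfrsf11b encodes osteoprotegerin, the decoy receptor that keeps RANKL from its receptor on osteoclast precursors, and it lies at chr15:54114015-54142075. Its level was 231, 236, 227 and 271 CPM in control and 98.9, 105, 98.8 and 92.7 CPM in mutant libraries (log2 fold change -1.27 ± 0.07, adjusted p = 3.01e-13). The mutant libraries were all below the lowest control library. The fall was smaller with vehicle (-0.80, adjusted p = 6.73e-11), and the 2 contrasts differed by -0.47, adjusted p = 0.00383, or by -0.46, adjusted p = 0.00214 without control vehicle replicate 4. RANKL itself, Tnfsf11, named after its value was seen, fell from 5.59 ± 0.837 to 3.37 ± 0.867 CPM (-0.61, adjusted p = 0.0245), a call lost without control replicate 1 or 2 or mutant replicate 3 (adjusted p from 0.0736 to 0.0972).

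Of the 8 tested genes that signal to osteoclasts, 2 rose and 3 fell (median log2 fold change -0.32). Sema3a, a semaphorin that restrains osteoclasts, fell from 45.0 ± 4.78 to 23.3 ± 3.51 CPM (log2 fold change -0.89 ± 0.09, adjusted p = 6.36e-08). The receptor of M-CSF, Csf1r, rose from 8.72 ± 1.08 to 20.4 ± 1.18 CPM (log2 fold change 1.23 ± 0.11, adjusted p = 2.29e-09). Of its ligands, Il34 rose from 28.2 ± 2.51 to 36.6 ± 2.42 CPM (0.39, adjusted p = 0.00117), whereas Csf1 was at 2086 ± 40.8 and 2018 ± 32.8 CPM (-0.03, adjusted p = 0.816).

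Serping1, at chr2:84595705-84620873, encodes the C1 inhibitor, a serpin that blocks the first complement enzymes and plasma kallikrein. Control libraries held 48.3, 53.7, 50.5 and 44.7 CPM and mutant libraries 109.6, 109, 116 and 135 CPM (log2 fold change 1.25 ± 0.07, adjusted p = 1.64e-12). The groups lay apart, with mutant replicate 4 the highest. With vehicle the rise was 1.11, adjusted p = 1.25e-10, and the contrasts did not differ past the threshold (0.14, adjusted p = 0.742).

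In the complement list, 7 of 21 tested genes rose and none fell (median log2 fold change 0.19); 1 fell without control replicate 4 or without mutant replicate 4. The C1q chains C1qb (2.69 ± 0.508 to 9.61 ± 0.927 CPM, 1.82, adjusted p = 3.35e-09) and C1qc (3.76 ± 0.448 to 9.96 ± 1.01 CPM, 1.39, adjusted p = 6.19e-08) start the classical pathway. Cfd, or adipsin, starts the alternative pathway and rose from 9.88 ± 1.59 to 20.3 ± 3.44 CPM (1.03, adjusted p = 4.26e-06). C3, the central and most abundant component per kb of exon, was at 1020 ± 35.0 and 1041 ± 33.1 CPM (0.04, adjusted p = 0.734). With vehicle C3 differed by -0.60, adjusted p = 0.77, and by 0.89, adjusted p = 4.12e-09 without control vehicle replicate 4. The contrasts then differed by -0.87, adjusted p = 1.1e-08, where with all libraries the difference was 0.63, adjusted p = 0.89.

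C1q is made mainly by macrophages, and most macrophage markers rose. Of 18 tested, 15 rose and none fell (median log2 fold change 1.12 with TNFα and 0.99 with vehicle), and the summed level was 113 to 133 CPM in the control libraries and 238 to 264 CPM in the mutant libraries, with no overlap. Of the 15, Aif1, named after its value was seen, held 3 counts or fewer in every control library (means 0.0257 CPM in control and 0.524 CPM in mutant cells). It passed the count filter only through the mutant libraries, so its direction was fixed in advance and it adds nothing to the count. Lyz2, a lysozyme, rose from 47.2 ± 5.15 to 87.4 ± 7.45 CPM (0.92, adjusted p = 1.05e-09). Cybb, a subunit of the phagocyte oxidase, rose from 10.2 ± 1.60 to 24.5 ± 0.396 CPM (1.29, adjusted p = 7.11e-10), and the protease Ctss rose from 9.08 ± 0.585 to 17.4 ± 1.65 CPM (0.97, adjusted p = 1.15e-07). Cd14 was at 6.07 ± 1.59 and 6.55 ± 0.709 CPM (0.16, adjusted p = 0.645). Csf1r is on this list too. The part of macrophage number in the rise of C1q, Csf1r and Serping1 was not tested.

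Several serine protease genes of the granzyme and mast cell protease cluster on chromosome 14 rose, although cytotoxic lymphocytes and mast cells are the cells known for them. Of 15 listed, 6 were detected well enough to be tested and all 6 rose, with a median log2 fold change of 2.05, or 1.92 with the genes near 0 in control cells set at their bound. Gzmb and Cma2 held 3 counts or fewer in every control library and passed the count filter only through the mutant libraries. The filter thus fixed the direction of these genes in advance, and they add nothing to the count. Over the alternatives 4 to 6 members rose. The summed level of the list was 6.08 to 8.58 CPM in the control libraries and 25.9 to 34.2 CPM in the mutant libraries. The bases ahead of the transcription start are shown for 4 genes because they share 1 unbroken run of 22 bases, given in capitals. The sequences are RefSeq's for the GRCm38.p6 build, minus strand, 5′ to 3′, and the last base printed is the one before the start; Gzmc is chr14:56234658-56234737, Gzmd chr14:56132594-56132673, Gzme chr14:56120626-56120705 and Gzmg chr14:56159580-56159659.
Gzmc: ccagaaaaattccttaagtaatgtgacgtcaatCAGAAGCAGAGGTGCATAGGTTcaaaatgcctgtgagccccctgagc
Gzmd: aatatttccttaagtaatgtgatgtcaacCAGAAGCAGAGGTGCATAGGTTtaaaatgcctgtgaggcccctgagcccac
Gzme: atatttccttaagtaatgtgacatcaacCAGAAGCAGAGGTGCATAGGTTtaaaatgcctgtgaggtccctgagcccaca
Gzmg: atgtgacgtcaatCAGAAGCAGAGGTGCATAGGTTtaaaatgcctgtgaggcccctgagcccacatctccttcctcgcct
Only these 4 genes held the run among the 32851 windows of 27025 genes in the RefSeq table, each window reaching from 250 bases before to 50 bases after a start. Gzmf of the same cluster held the run with 1 substitution, A2T, counted from the 5′ end of the run, and Gzmb and Mcpt8 differed from it at 11 of the 22 bases where they came closest. The granzyme genes of this cluster are close copies of each other, and reads that match more than 1 copy can be lost or assigned to the wrong one, so the values of single members are uncertain.

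Gzme, the most abundant per kb of exon, was at 5.38, 2.83, 4.24 and 4.73 CPM in control and 16.4, 17.6, 15.3 and 18.1 CPM in mutant libraries (log2 fold change 1.99 ± 0.14, adjusted p = 9.55e-11), at chr14:56355083-56358082 in GRCm39. Gzmc was at 1.17, 0.652, 0.802 and 0.925 CPM in control and 4.17, 3.77, 3.30 and 3.90 CPM in mutant libraries (log2 fold change 2.11 ± 0.25, adjusted p = 5.57e-07). Both groups were apart for each gene. Gzmd rose from 0.711 ± 0.302 to 2.57 ± 0.318 CPM (log2 fold change 1.86 ± 0.29, adjusted p = 5.39e-05), and Gzmg, which shares the run, and Gzmf had no count in any of the 8 libraries.

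Mcpt8, a protease known from basophils, rose from 1.55 ± 0.116 to 4.92 ± 2.12 CPM (log2 fold change 1.51 ± 0.24, adjusted p = 4.64e-05), with mutant replicate 4 the highest at 3.52, 4.11, 3.98 and 8.07 CPM over replicates 1 to 4. Gzmb, the granzyme of cytotoxic T cells, was at 0.0780, 0, 0.172 and 0.0514 CPM in control libraries, 3 counts or fewer in each, and at 0.911, 0.685, 0.511 and 0.835 CPM in mutant libraries. With vehicle the same 6 genes were tested; 6 rose, and 5 rose without control vehicle replicate 4. Of markers of T, NK and mast cells, 3 could be tested and none rose or fell, 11 of the markers had no count in any of the 8 libraries, and the summed level was 4.41 to 5.81 CPM in the control libraries and 3.90 to 5.34 CPM in the mutant libraries. The stem cell factor receptor Kit, which other cells express as well, was at 3.95 ± 0.406 and 2.85 ± 0.993 CPM (-0.36, adjusted p = 0.325).

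Serpins of the Serpina3 cluster on chromosome 12, which inhibit serine proteases, and the kininogens, precursors of bradykinin, rose in part. Of 12 tested, 6 rose and none fell, with a median log2 fold change of 0.83. The median was 1.13 without 1 member that held 3 counts or fewer in every library of both groups. Serpina3g was at 11.2, 11.3, 11.9 and 8.32 CPM in control and 28.3, 28.7, 24.0 and 25.3 CPM in mutant libraries (log2 fold change 1.35 ± 0.11, adjusted p = 4.1e-10). Serpina3h, which the annotation gives as a transcribed pseudogene and not as protein-coding, rose as well. It was at 1.01, 3.31, 2.58 and 1.75 CPM in control and 6.51, 6.17, 6.54 and 6.4 CPM in mutant libraries (log2 fold change 1.54 ± 0.22, adjusted p = 2.12e-05), and with vehicle it did not pass the test (-0.19, adjusted p = 0.898, and -0.23, adjusted p = 0.889 without control vehicle replicate 4). Over the list with vehicle, 3 of 10 rose and 1 fell with a median of 0.16, and 4 rose and 1 fell with a median of 1.06 without that library. The kininogens Kng1 (2.63 ± 0.248 to 5.57 ± 0.699 CPM, 1.13, adjusted p = 3.72e-05) and Kng2 (2.42 ± 0.694 to 5.50 ± 0.461 CPM, 1.20, adjusted p = 7.42e-05) rose. Serpina3n, the most abundant member per kb of exon, was at 54.1 ± 4.28 and 48.9 ± 1.89 CPM (-0.13, adjusted p = 0.271). The Serpina3 genes and the kininogens are close copies too, with the same limit on reads shared between copies.

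**Figure D2:**
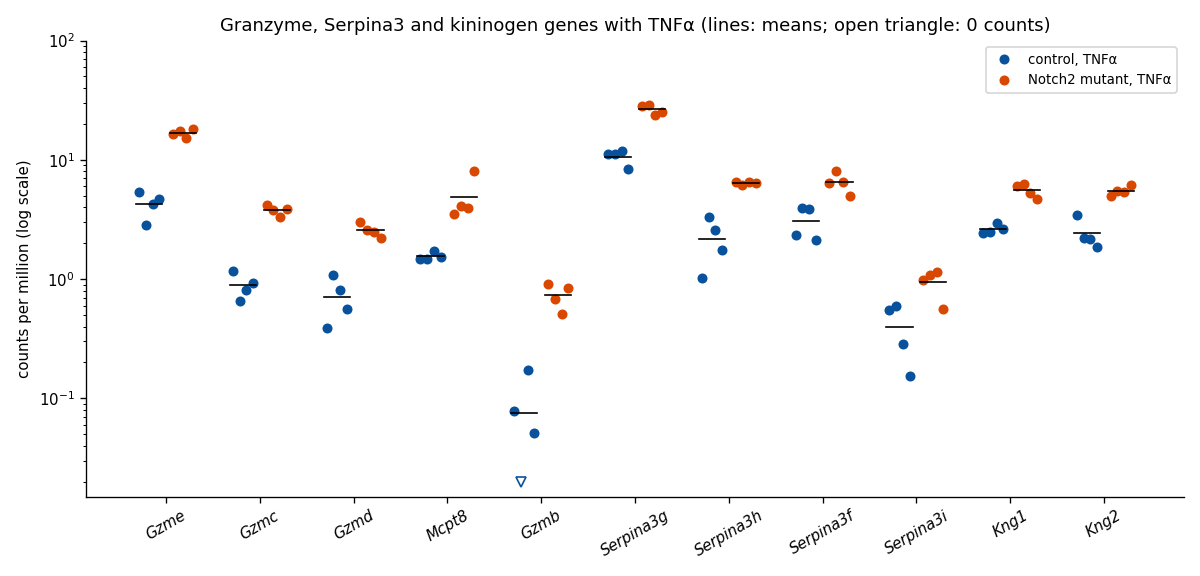
Levels of 5 granzyme cluster genes, 4 Serpina3 genes and 2 kininogens in CPM (log y axis) in the 8 TNFα libraries; points are libraries, short lines are group means, and an open triangle at the foot of the axis marks a library with 0 counts. For Gzme the 4 mutant libraries, at 15.3 to 18.1 CPM, lie above the 4 control libraries, at 2.83 to 5.38 CPM.

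Because the freed NOTCH2 domain acts through RBPJκ, the promoter windows of the RefSeq table were searched for the core letters TGGGAA of its binding motif (TTCCCA on the other strand). Of the 196 genes that rose past a log2 fold change of 1, 132 had a window in the table and 35 of those held the letters in 1 or more windows (26.52%). Of the 76 that fell past it, 47 had a window and 12 of those held them (25.53%), beside 28.31% of all 27025 genes in the table. These shares are a description of the windows, and they say nothing on whether RBPJκ binds there or elsewhere.

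Antagonists of BMPs, the growth factors that drive chondrogenesis, were among the genes that fell. Of 24 tested BMP and GDF ligands and antagonists, 5 rose and 8 fell (median log2 fold change -0.15). Grem1, encoding the secreted antagonist gremlin 1, was at 162, 161, 144 and 177 CPM in control and 74.9, 84.3, 81.3 and 79.9 CPM in mutant libraries (log2 fold change -0.99 ± 0.07, adjusted p = 3.69e-11). The BMP-binding Chrdl1 fell from 75.2 ± 2.68 to 47.0 ± 5.39 CPM (-0.66, adjusted p = 2.8e-07). Fstl1, a follistatin-like protein, rose from 1951 ± 106 to 2649 ± 181 CPM (0.46, adjusted p = 9.25e-06), and Kcp, which modulates BMP signaling, rose from 4.62 ± 0.658 to 9.10 ± 0.647 CPM (0.99, adjusted p = 1.03e-05). Twsg1 was at 263 ± 8.36 and 233 ± 13.5 CPM (-0.15, adjusted p = 0.119), and without control replicate 4 it was lower at an adjusted p of 0.0410.

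Of 37 tested Wnt genes, 5 rose and 6 fell, beside 5.63% and 4.31% of all genes (median log2 fold change 0.07). The falls numbered 2 without mutant replicate 1 and 3 without control replicate 4. The secreted Wnt antagonist Sfrp1 was at 92.6, 86.5, 89.4 and 102 CPM in control and 183, 175, 165 and 175 CPM in mutant libraries (log2 fold change 0.93 ± 0.06, adjusted p = 3.69e-11). Its relative Sfrp2 rose by 0.47 (adjusted p = 6.33e-06). Rspo2, a secreted enhancer of Wnt signals, rose from 103 ± 6.21 to 156 ± 6.07 CPM (0.62, adjusted p = 2.4e-08), and the receptor Fzd1 rose from 139 ± 10.6 to 199 ± 18.8 CPM (0.54, adjusted p = 2.29e-06). Dkk3 was at 386 ± 8.51 and 350.1 ± 7.05 CPM (-0.12, adjusted p = 0.205).

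Retinoid metabolism showed a change of enzymes that make retinoic acid, a signal that opposes cartilage formation. Of 16 tested genes, 5 rose and 3 fell (median log2 fold change -0.14). Aldh1a2 was at 18.7, 15.7, 19.8 and 14.4 CPM in control and 43.0, 41.3, 43.6 and 34.2 CPM in mutant libraries (log2 fold change 1.29 ± 0.09, adjusted p = 1.44e-10). Aldh1a1, which catalyzes the same step, went from 61.4, 62.7, 64.8 and 66.0 CPM in control to 36.4, 37.4, 37.9 and 34.0 CPM in mutant libraries (log2 fold change -0.78 ± 0.07, adjusted p = 1.61e-09). The 2 enzymes thus moved in opposite directions, each without overlap of the groups. Aldh1a3 rose from 3.68 ± 0.354 to 6.93 ± 0.372 CPM (0.93, adjusted p = 8.17e-05), and Dhrs3, which returns retinaldehyde to retinol, fell from 85.2 ± 10.9 to 62.3 ± 5.02 CPM (-0.46, adjusted p = 0.000253). The receptor Rarg was at 188 ± 8.04 and 168 ± 9.78 CPM (-0.15, adjusted p = 0.15), and it was lower at an adjusted p of 0.0332 without mutant replicate 4.

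Of 11 tested genes of secretory granules and neuroendocrine cells, 4 rose and 2 fell. The summed level of the list was 956 to 984 CPM in the control libraries and 791 to 987 CPM in the mutant libraries, far above the genes that rose. The 2 that fell, named after their values were seen, were Cpe (adjusted p = 0.026) and Pcsk2 (adjusted p = 0.0102). The median log2 fold change of the list was -0.21 as fitted. It was 0.50 with 1 member at its bound and without 1 that held 3 counts or fewer in every library of both groups. The sign of the median thus depends on members that were barely detected. The 2 falls numbered 0 without mutant replicate 2 and 1 without control replicate 1, mutant replicate 1 or mutant replicate 3. Ptprn, a phosphatase-like protein of dense-core vesicles, was at 13.1, 12.4, 10.7 and 10.2 CPM in control and 30.2, 32.9, 32.7 and 34.5 CPM in mutant libraries (log2 fold change 1.5 ± 0.09, adjusted p = 5.66e-12). Scg2, a granin, rose from 6.56 ± 0.843 to 13.3 ± 1.08 CPM (1.01, adjusted p = 1.28e-06). Stmn2, a microtubule regulator of neurons (0.852 to 2.91 CPM, 1.61, adjusted p = 0.000442), and the neuropeptide precursor Vgf (1.38 to 3.14 CPM, 1.16, adjusted p = 0.00205) rose from low levels. Scg5 was under 1 CPM in both genotypes (-1.15, adjusted p = 0.393).

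Chemokines, the direct products of TNFα signaling in many cells, were not uniformly higher in mutant cells. Of 24 tested, 8 rose and 3 fell, with a median log2 fold change of 0.22 or 0.16 with members near 0 at their bound. Cxcl12, the homeostatic chemokine of stromal cells, was at 561, 593, 585 and 597 CPM in control and 955, 949, 907 and 934 CPM in mutant libraries (log2 fold change 0.70 ± 0.06, adjusted p = 1.23e-09). Ccl9 rose from 55.9 ± 6.39 to 89.5 ± 2.63 CPM (log2 fold change 0.70 ± 0.07, adjusted p = 4.65e-08) and Ccl20 from 22.2 ± 1.24 to 39.5 ± 5.95 CPM (log2 fold change 0.83 ± 0.09, adjusted p = 4.34e-07). The neutrophil attractant Cxcl3 fell from 17.6 ± 1.16 to 10.1 ± 0.228 CPM (log2 fold change -0.79 ± 0.10, adjusted p = 2.09e-06). Cxcl10, the interferon-inducible attractant of T cells, was named after its value was seen and fell from 1495 ± 159 to 1202 ± 89.0 CPM (-0.30, adjusted p = 0.00548). Ccl2, an attractant of monocytes, was at 1292 ± 155 and 1636 ± 265 CPM (0.36, adjusted p = 0.0905), and it passed the threshold under DESeq2. With vehicle, 2 of 20 rose, with a median of -0.64, and 6 of 17 rose without control vehicle replicate 4, with a median of 0.41. In the fit to all 16 libraries, 5 chemokines rose and none fell with TNFα.

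NF-κB targets divided evenly. Of 26 tested, 5 rose and 5 fell (median log2 fold change 0.10). Tnfaip6, or TSG-6, which modifies hyaluronan in inflamed joints, was at 16.6, 16.2, 15.4 and 12.2 CPM in control and 30.7, 29.5, 29.1 and 32.6 CPM in mutant libraries (log2 fold change 1.02 ± 0.09, adjusted p = 6.93e-09). Icam1 went the other way, at 2563, 2662, 2780 and 2272 CPM in control and 1898, 1812, 1761 and 1947 CPM in mutant libraries (log2 fold change -0.45 ± 0.07, adjusted p = 1.39e-05), a call not made in the fit to all 16 libraries. Every library of each group lay apart from the other group for these genes. Lcn2, a siderophore-binding protein, fell from 112 ± 4.90 to 81.8 ± 5.02 CPM (-0.44, adjusted p = 1.06e-05), and Nfkb1, a subunit of NF-κB, rose from 133 ± 3.26 to 163 ± 6.68 CPM (0.32, adjusted p = 0.000348). Tnfaip2 was at 586 ± 52.4 and 656 ± 35.5 CPM (0.18, adjusted p = 0.0931), and it was higher at an adjusted p of 0.0215 without mutant replicate 4. Il6 and Tslp, also on this list, were named after their values were seen. Il6 rose from 0.758 to 1.62 CPM (1.11, adjusted p = 0.0359), a call lost without control replicate 1 or 3 or mutant replicate 2 or 3 (adjusted p up to 0.276). Tslp fell from 12.9 to 5.17 CPM (-1.32, adjusted p = 0.00911). The falls on the list numbered 3 without control replicate 1, 2 or 3 or mutant replicate 2 or 3, and in the fit to all 16 libraries 3 of the list rose and 2 fell.

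Outside these lists, Apoe, the lipid carrier apolipoprotein E, was among the genes of lowest p value. It was at 76.7, 75.7, 80.5 and 86.1 CPM in control and 168, 167, 163 and 191 CPM in mutant libraries (log2 fold change 1.12 ± 0.07, adjusted p = 1.64e-12), with mutant replicate 4 above the other 3. Aoc3, an amine oxidase of vessels and adipose tissue also called VAP-1, was at 13.1, 13.5, 12.2 and 15.8 CPM in control and 32.4, 35.1, 38.0 and 37.0 CPM in mutant libraries (log2 fold change 1.39 ± 0.09, adjusted p = 2.29e-11), and with vehicle the difference was 1.39, adjusted p = 1.36e-12. Pcdh18, a protocadherin, was at 40.2, 35.5, 35.8 and 38.9 CPM in control and 69.7, 75.1, 76.7 and 77.7 CPM in mutant libraries (log2 fold change 1.01 ± 0.07, adjusted p = 2.89e-11). Postn, encoding periostin, a matrix protein of periosteum and ligament, is counted in the fibroblast and perichondrium list below. It was at 338, 331, 314 and 314 CPM in control and 645, 658, 662 and 625 CPM in mutant libraries (log2 fold change 1.02 ± 0.06, adjusted p = 1.64e-12).

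The remaining genes with the lowest p values among those that fell have varied roles. Ppp1r1b, encoding the phosphatase inhibitor DARPP-32, was at 52.3, 54.3, 52.6 and 61.7 CPM in control and 23.3, 24.8, 26.5 and 34.0 CPM in mutant libraries (log2 fold change -1.07 ± 0.09, adjusted p = 1.6e-09). F13a1, the A chain of the transglutaminase factor XIII, which crosslinks fibrin and is made by macrophages and chondrocytes, fell from 16.4 ± 1.91 to 7.03 ± 0.821 CPM (log2 fold change -1.22 ± 0.12, adjusted p = 3.93e-08) while macrophage markers rose. The cell surface peptidase Dpp4 was at 10.1, 8.58, 9.74 and 10.7 CPM in control and 3.97, 3.37, 3.24 and 1.95 CPM in mutant libraries (log2 fold change -1.52 ± 0.15, adjusted p = 4.16e-08). Msmp, a microseminoprotein, fell from 17.1 ± 1.13 to 7.61 ± 1.5 CPM (-1.15, adjusted p = 1.31e-07), the neuronal pentraxin Nptx1 from 12.1 ± 1.68 to 5.40 ± 0.552 CPM (-1.14, adjusted p = 8.03e-07), and Msln, the mesothelial protein mesothelin, from 7.60 ± 0.814 to 3.06 ± 0.442 CPM (-1.33, adjusted p = 1.18e-06). All of them also fell with vehicle, by log2 fold changes of -0.51 (Msmp) to -1.52 (Msln).

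Markers of other cell types that a culture of epiphyses can hold moved with the genotype too. Of 14 tested smooth muscle and pericyte markers, 7 rose and 1 fell (2 without control replicate 1), and the summed level was 1470 to 1781 CPM in the control libraries and 2435 to 2816 CPM in the mutant libraries. In the vehicle contrast 11 of the 14 rose and none fell, with or without control vehicle replicate 4. The median log2 fold change of the list was 0.95 with vehicle and 0.51 with TNFα. Acta2, smooth muscle actin, was at 715, 679, 672 and 822 CPM in control and 1380, 1382, 1326 and 1662 CPM in mutant libraries (log2 fold change 1.01 ± 0.08, adjusted p = 9.8e-10). Tagln rose from 301 ± 21.3 to 507 ± 34.9 CPM (0.77, adjusted p = 1.98e-09) and Actg2 from 24.4 ± 2.97 to 43.1 ± 3.2 CPM (0.82, adjusted p = 6.98e-08), whereas Tpm2 was at 194 ± 26.1 and 214 ± 14.9 CPM (0.16, adjusted p = 0.26), and higher at an adjusted p of 0.00934 without control replicate 4.

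Of 20 tested fibroblast and perichondrium markers, 12 rose and 2 fell, with a summed level of 55650 to 71480 CPM in the control libraries and 69630 to 78270 CPM in the mutant libraries, ranges that overlapped. Thy1 rose from 57.7 ± 3.33 to 100 ± 9.16 CPM (0.80, adjusted p = 2.03e-09) and Tnmd, the tendon protein tenomodulin, from 20.8 ± 2.36 to 40.1 ± 2.08 CPM (0.97, adjusted p = 2.78e-09). The PDGF receptor Pdgfrb rose from 276 ± 19.3 to 394 ± 11.2 CPM (0.53, adjusted p = 5.58e-07), and fibronectin, Fn1, was at 29370 ± 6252 and 32840 ± 2153 CPM (0.18, adjusted p = 0.56), with an adjusted p of 0.0366 without control replicate 1. The 2 falls numbered 1 without any single library other than mutant replicate 2.

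Skeletal muscle markers were low, with a summed level of 13.8 to 26.8 CPM in the control libraries and 22.1 to 46.5 CPM in the mutant libraries, and 3 of 18 tested rose. Neb, or nebulin, rose from 0.854 ± 0.355 to 3.23 ± 1.12 CPM (1.80, adjusted p = 0.000191), and Actc1, an embryonic muscle actin, from 0.456 ± 0.252 to 1.72 ± 0.486 CPM (1.76, adjusted p = 0.0023). Troponin Tnnc2 was at 0.383 ± 0.231 and 1.07 ± 0.352 CPM (1.57, adjusted p = 0.023), a call lost without control replicate 3 or 4 or mutant replicate 1 or 3, with adjusted p values up to 0.136, and Acta1 was at 5.37 ± 2.30 and 8.58 ± 3.75 CPM (0.49, adjusted p = 0.492), with an adjusted p of 0.0275 without control replicate 4. These marker lists moved in the same libraries as the fall of cartilage matrix genes and the rises of collagens IV, VI, XV and XVIII, and their part in those changes was not tested.

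Of 15 tested cell cycle genes, 4 rose, beside 5.63% of all genes, and none fell (median log2 fold change 0.12), and the rises numbered 1 to 2 without control replicate 4 or mutant replicate 2, 3 or 4. With vehicle 12 of the 15 rose, and 9 did without control vehicle replicate 4. The mitotic kinase Plk1 rose by 0.37 (adjusted p = 0.00178). Top2a rose by 0.26 (adjusted p = 0.00637, and 0.0594 without mutant replicate 3). Aurkb (0.28, adjusted p = 0.0247, and up to 0.119 with 1 of 5 libraries left out) and Birc5 (0.26, adjusted p = 0.0334, and up to 0.162 likewise) had overlapping groups, and Mki67 was at 182 ± 36.9 and 258 ± 33.6 CPM (0.51, adjusted p = 0.128, and 0.0496 without control replicate 1).

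Mitochondrial transcripts took 0.581% to 0.782% of counts in control and 0.415% to 0.555% in mutant libraries. Of 13 tested, 3 fell and none rose (median log2 fold change -0.44), and 8 fell without control replicate 1 or without mutant replicate 2, and 5 without mutant replicate 3. The count also turned on the method, with 8 falls under DESeq2, 7 with the filterByExpr filter, 9 with no filter beyond 1 count, 10 with a replicate block and 1 in the fit to all 16 libraries. The ribosomal RNAs mt-Rnr1 (186 ± 24.1 to 123 ± 19.1 CPM, -0.59, adjusted p = 0.013) and mt-Rnr2 (211 ± 23.1 to 137 ± 19.1 CPM, -0.61, adjusted p = 0.00142) fell, as did mt-Co2 (3.45 ± 0.749 to 1.55 ± 0.741 CPM, -0.95, adjusted p = 0.0104, and 0.0579 without mutant replicate 1). The abundant mt-Co1 was at 2549 ± 314 and 1794 ± 334 CPM (-0.49, adjusted p = 0.0804, with adjusted p values of 0.0450 and 0.0119 without control replicate 1 and without mutant replicate 2).

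The libraries pool pups of both sexes, and of 5 tested sex-linked genes 3 rose and none fell; 1 rose without control replicate 3 or without mutant replicate 2. Eif2s3y rose from 10.1 ± 0.566 to 15.6 ± 0.812 CPM (0.65, adjusted p = 4.65e-05). Ddx3y rose by 0.36 (adjusted p = 0.00893, and up to 0.0883 without control replicate 3 or mutant replicate 2), and Uty by 0.47 (adjusted p = 0.0209, and up to 0.0888 without 1 of 4 libraries, control 2 or 3 or mutant 2 or 3). The Y-linked Kdm5d was at 11.7 ± 0.566 and 13.5 ± 1.66 CPM (0.26, adjusted p = 0.136). Xist was at 369 ± 51.8 and 264 ± 56.2 CPM (-0.45, adjusted p = 0.189, and 0.0153 without mutant replicate 3). With vehicle 3 of the 5 also rose, with a median log2 fold change of 0.41, or 0.50 without control vehicle replicate 4. A different share of male cells between the groups and the genotype cannot be told apart in the libraries of either treatment.

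**Figure D3:**
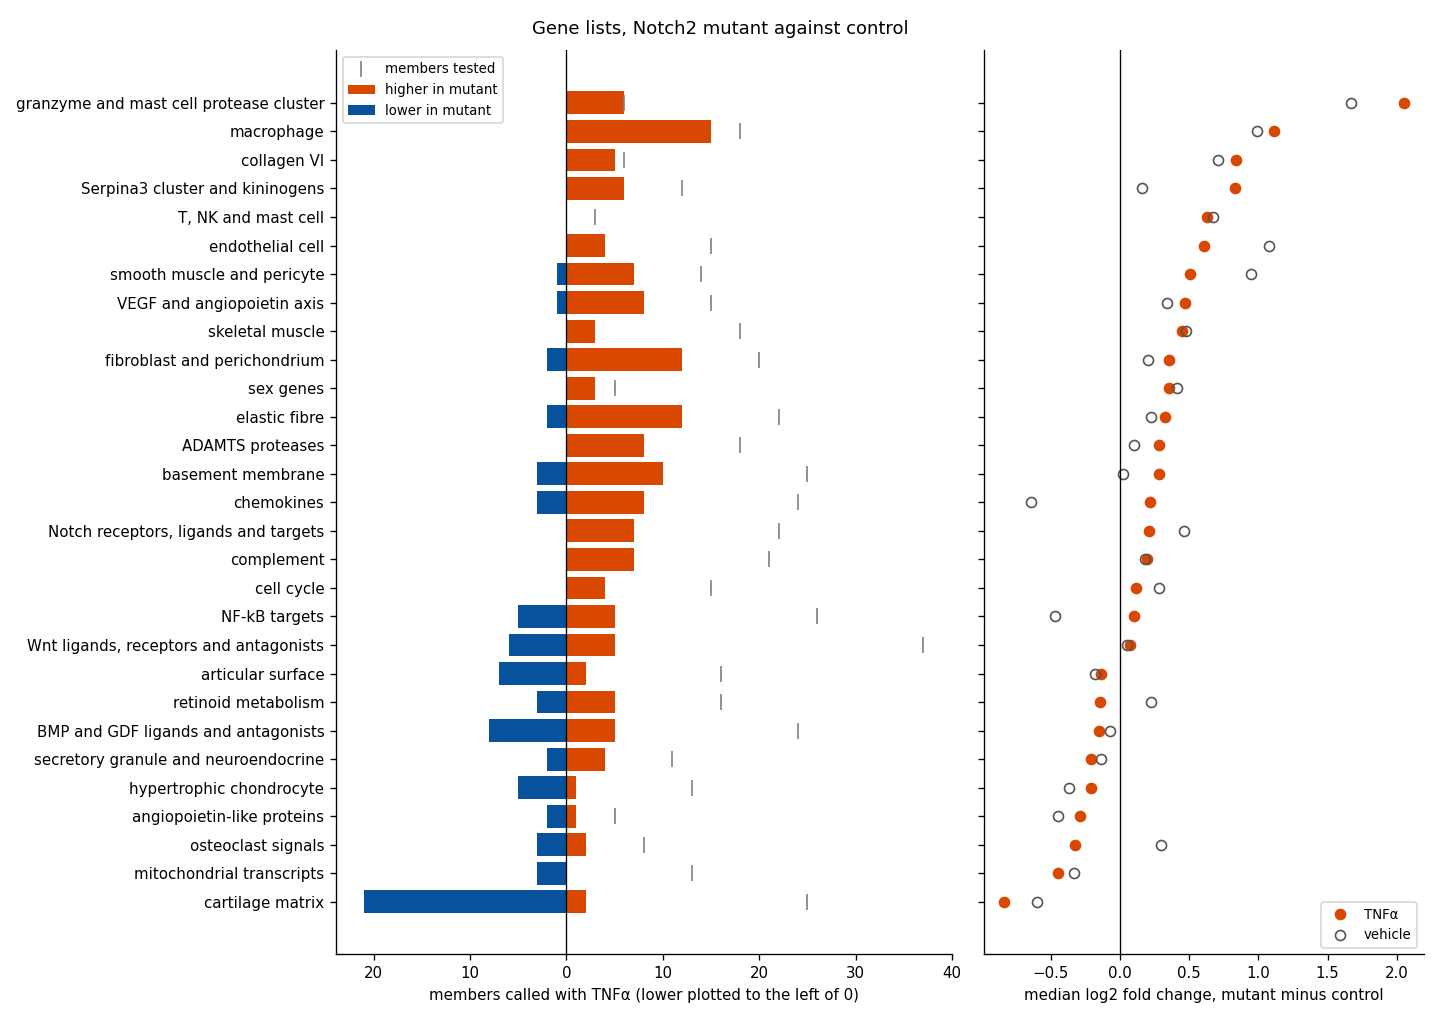
The 29 gene lists, ordered by their median log2 fold change with TNFα. Left, bars count members at an adjusted p under 0.05 that were higher (right of 0) or lower (left of 0) in Notch2tm1.1Ecan than in control cells with TNFα, and grey ticks mark how many members were tested; right, the median log2 fold change of the members as fitted with TNFα (filled) and with vehicle (open, control replicate 4 included). The median was below 0 for 9 lists and above 0 for 20, with cartilage matrix lowest at -0.84 and the granzyme cluster highest at 2.05.

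The same genotype contrast with vehicle called 2048 of 19432 genes, 1203 higher (6.19%) and 845 lower (4.35%), in libraries that the TNFα contrast does not use. Both contrasts called 1007 genes, which is 52.7% of those called with TNFα and 49.2% of those called with vehicle, and 7 of the 1007 went in opposite directions. Without control vehicle replicate 4 the vehicle contrast called 1980 genes, of which 1705 were also called with it. Its omission moved the vehicle median by over 1.5 times for 8 of the gene lists, from -0.47 to 0.03 for NF-κB targets, -0.64 to 0.41 for chemokines, 0.16 to 1.06 for the Serpina3 cluster and kininogens, -0.45 to -0.13 for angiopoietin-like genes, -0.14 to -0.01 for the secretory granule list, 0.10 to 0.27 for ADAMTS proteases, 0.02 to 0.12 for basement membrane and 0.05 to 0.08 for Wnt genes. A call in one contrast and not in the other does not show that they differ. The difference itself, tested as the interaction of genotype and TNFα over all 16 libraries, passed for 101 of 21321 genes (0.474%), and 63 of the 1912 genes called with TNFα were among them. Without control vehicle replicate 4 it passed for 102 genes, 75 of them the same, but the share in which the TNFα contrast was the higher went from 57 of 101 to 41 of 102.

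Among the genes named by p value or list, the interaction passed for 7 (Tnfrsf11b, Matn1, Pcdh18, Adamts14, Angptl2, Ccl9 and Tnfaip6). Pcdh18 rose more with TNFα than with vehicle, by 0.60, adjusted p = 0.00115, and so did Tnfaip6 (0.70, adjusted p = 0.00966), Angptl2 (0.47, adjusted p = 0.00107), Adamts14 (0.44, adjusted p = 0.0236) and Ccl9 (0.99, adjusted p = 0.034). Matn1, like Tnfrsf11b, fell more with TNFα (-0.41, adjusted p = 0.0305). For Angptl2, Adamts14 and Ccl9 the vehicle contrast itself did not pass the test (adjusted p = 0.916, 0.743 and 0.329).

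**Figure D4:**
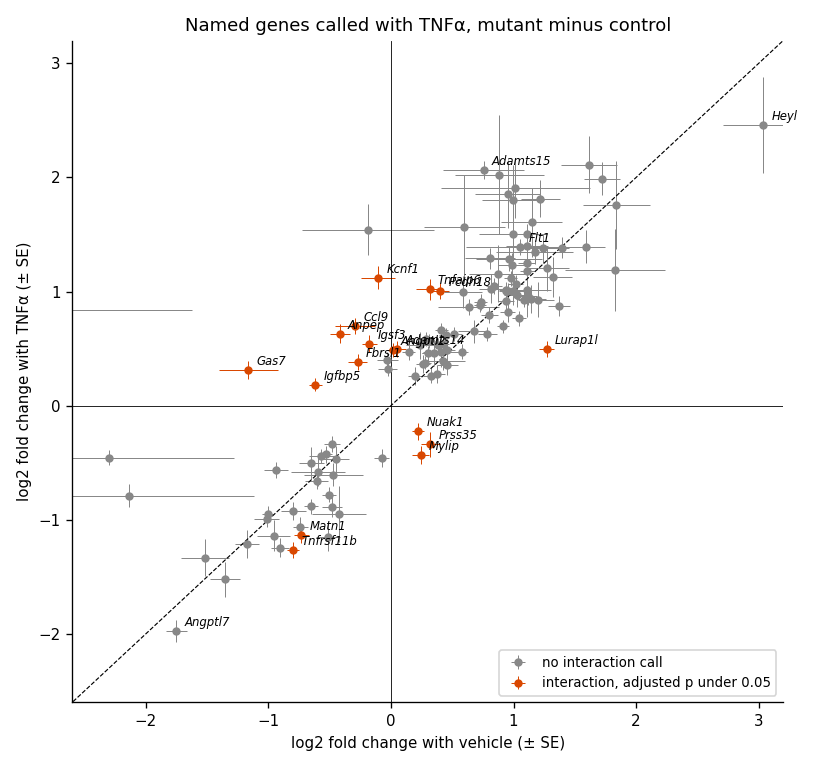
Log2 fold change between Notch2tm1.1Ecan and control cells with vehicle (x axis) and with TNFα (y axis), each ± SE and with control vehicle replicate 4 included, for 123 named genes that rose or fell with TNFα; the dashed line marks equal values, orange points are the 17 genes that passed the interaction test, and 1 gene, Ccl20, lies left of the axes with its error bar cut off. Most points lie along the dashed line, with Adamts15 and Kcnf1 above it and Lurap1l below it.

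Further genes were named after their values were seen, the 5 of lowest interaction p with a mean of at least 5 CPM and the 7 called in opposite directions by the 2 contrasts, 10 genes in all. Igfbp5, a secreted IGF-binding protein, had the lowest interaction p (0.79, adjusted p = 1.01e-09). With vehicle its mean fell from 2031 CPM in control to 1326 CPM in mutant cells (-0.62, adjusted p = 1.15e-08), and with TNFα it was at 2757 CPM in control and 3098 CPM in mutant cells (0.18, adjusted p = 0.0422). The TNFα call was lost when any of 7 libraries, all but mutant replicate 4, was left out (adjusted p up to 0.183), whereas the interaction passed in all 22 alternatives.

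Anpep, a cell surface aminopeptidase, behaved alike, with means of 32.6 and 24.3 CPM with vehicle (-0.42, adjusted p = 0.000883) and 24.8 and 38.3 CPM with TNFα (0.63, adjusted p = 4.2e-06; interaction 1.04, adjusted p = 1.09e-06). Kcnf1, a modulatory potassium channel subunit, did not pass the test with vehicle, at 6.56 and 6.15 CPM (-0.10, adjusted p = 0.747), and rose with TNFα from 13.1 to 27.3 CPM (1.12, adjusted p = 2.92e-09; interaction 1.23, adjusted p = 3.56e-05). Igsf3, an immunoglobulin superfamily membrane protein, likewise rose with TNFα (0.54, adjusted p = 7.52e-06; interaction 0.72, adjusted p = 5.9e-05). Lurap1l showed the reverse, rising from 46.8 to 113 CPM with vehicle (1.27, adjusted p = 1.48e-12) and from 39.9 to 55.1 CPM with TNFα (0.49, adjusted p = 1.45e-05; interaction -0.78, adjusted p = 3.76e-06).

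The other genes called in opposite directions were Fbrsl1 and Gas7, higher in mutant cells with TNFα (0.39 and 0.31) and lower with vehicle (-0.27 and -1.16), and Mylip, Prss35 and Nuak1, lower with TNFα (-0.44, -0.34 and -0.22) and higher with vehicle (0.24, 0.32 and 0.22). Mylip encodes the ubiquitin ligase that degrades the LDL receptor, and Nuak1 an AMPK-related kinase. The TNFα calls of Prss35 and Nuak1 were lost on leaving out any of 5 libraries (Prss35: control 2 and 4, mutant 1, 3 and 4; Nuak1: control 1 and 4, mutant 1, 2 and 3), with adjusted p values up to 0.12 and 0.21. The vehicle call of Fbrsl1 was lost without control vehicle replicate 4 (-0.23, adjusted p = 0.0608). The TNFα call of Gas7 was lost without control replicate 4 (adjusted p = 0.0533) or mutant replicate 3 (adjusted p = 0.0872).

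**Figure D5:**
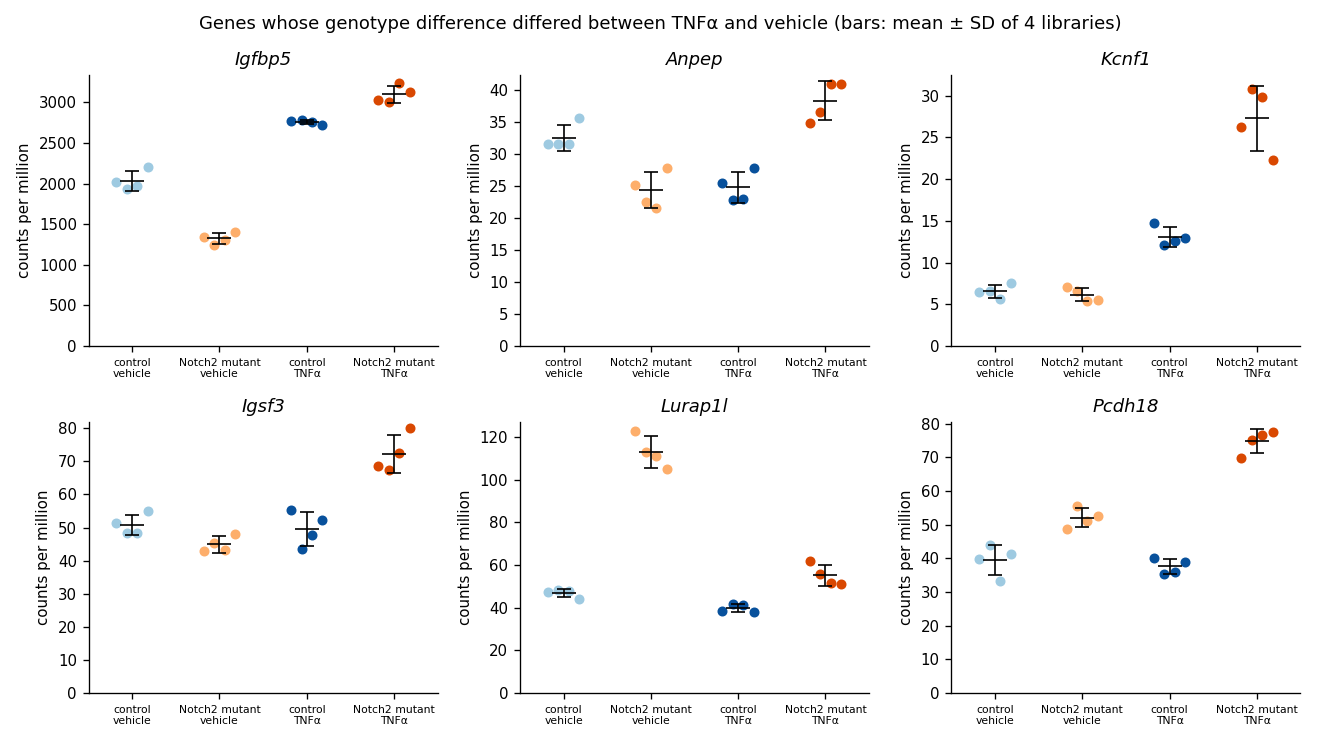
Levels of Igfbp5, Anpep, Kcnf1, Igsf3, Lurap1l and Pcdh18 in CPM (linear y axes from 0) in the 16 libraries, by genotype and treatment; points are libraries, and bars give the mean ± SD of 4 libraries. Igfbp5 and Anpep are lower in mutant than in control libraries with vehicle and higher with TNFα, Kcnf1, Igsf3 and Pcdh18 are raised most in mutant libraries with TNFα, and the genotype difference in Lurap1l is larger with vehicle.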

How the data were processed

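RNA from 16 cultures of chondrocyte-enriched cells was made into stranded, paired-end mRNA libraries. The values used are raw counts of read pairs per gene as deposited by the authors, 1 table per library, with no normalization. The study's methods name HISAT2 and htseq-count with Ensembl GRCm39, whereas the submitters' processing notes name GRCm38, HISAT2 2.1.0, SAMtools 1.9, Picard, HTSeq and DESeq2; the strand setting of the counting is not given in the sources used here. Gene names and coordinates came from GENCODE for GRCm39, which held 54749 of the 55414 identifiers; the other 665 took 0.0182% of counts. Entries that name no gene, 8.811% to 12.138% of a library, were left out.

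Genes with at least 10 counts over the 8 libraries compared were fitted in edgeR 4.0.16 (R 4.3.3) with TMM factors and a robust quasi-likelihood test, and p values were adjusted over all genes tested by the method of Benjamini and Hochberg. The biological coefficient of variation was 7.787%. Standard errors were derived from the fold change and its F statistic. The vehicle contrast was fitted in the same way, and the interaction of genotype and TNFα was fitted over 16 libraries. Depth was 3439726 to 19220459 counts per TNFα library. The replicates of a group differed by at least 2.136 in chi-square per degree of freedom over genes, so none was a copy of another. The code was tested on simulated data. DESeq2 1.42.0, sva 3.50.0, other normalizations and filters, a replicate block and omission of single libraries were tried as alternatives.

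Genes named were Notch2, Heyl and the 5 leading genes; the 10 rises and the 10 falls of lowest adjusted p past a log2 fold change of 1 with a mean of at least 5 CPM, heat map genes of the study left out; and in each of 29 lists up to 4 members called, of lowest adjusted p, and the most abundant member not called, 142 genes in all. The members and lists were chosen with earlier results of these data known. A further 10 genes were named once their values had been seen, as were Vegfa, Tnfsf11, Sox9, Acan, Gzmb, Cma2, Maml2, Lfng, Col6a3, Cxcl10, Kdm5d, Aif1, Cpe, Pcsk2, Il6 and Tslp. Bounds rest on a floor of 3 counts per library.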

Additional observations from a re-analysis of the deposited data

Results flagged for a closer look

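For 17 of the genes named, the genotype difference with TNFα differed from that with vehicle in the interaction test (edgeR, all 16 libraries, adjusted p under 0.05). The log2 difference, TNFα minus vehicle, was above 0 for Gas7 (1.46), Kcnf1 (1.23), Anpep (1.04), Ccl9 (0.99), Igfbp5 (0.79), Igsf3 (0.72), Tnfaip6 (0.7), Fbrsl1 (0.65), Pcdh18 (0.6), Angptl2 (0.47) and Adamts14 (0.44). It was below 0 for Lurap1l (-0.78), Mylip (-0.68), Prss35 (-0.66), Tnfrsf11b (-0.47), Nuak1 (-0.45) and Matn1 (-0.41). Over 22 alternatives the call was kept in all for 13 of the 17, and it was lost in 5 for Matn1, 6 for Adamts14, 11 for Ccl9 and 14 for Gas7.

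A library stood apart from the other 3 of its group in 17 of 304 groups examined, by Dixon's ratio of the gap to the whole range above its 95% critical value. Chance flags about 1 in 20 groups. Mutant replicate 4, the shallowest library, was the one apart in 10 of the 17. It was the highest for Apoe (0.85), Thbs4 (0.863), Fbln2 (0.866), Mcpt8 (0.869), Rarg (0.896), Acta2 (0.834), Acta1 (0.941) and Fbrsl1 (0.832), and the lowest for Rbpj (0.882) and Tnfaip2 (0.896). Mutant replicate 3 was the highest for Notch3 (0.87) and Nrp2 (0.875), and mutant replicate 2 the lowest for Msln (0.893). Among control libraries, replicate 1 was the highest for Fbln2 (0.87), replicate 2 the lowest for Cfd (0.974), and replicate 4 the highest for Dhrs3 (0.852) and Actg2 (0.861).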

How the results depend on the processing

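Of the 124 named genes called with TNFα, 101 kept their direction and their call in each of 15 alternatives (DESeq2, RLE factors, 2 other filters, a replicate block, 1 surrogate variable, a fit to all 16 libraries and omission of each of 8 libraries), 23 lost the call in 1 or more, and none reversed. Of 28 named genes not called, 11 were called in some alternative, and Angptl4 reversed without control replicate 4 (-0.0535 to 0.0479 over omissions of single libraries). The 1912 calls with TNFα became 1898 under DESeq2, 2158 with no filter beyond 1 count, 1968 with a surrogate variable and 272 when a log2 fold change of at least 1 was also required, which left 244 of the 2048 with vehicle. The 101 interaction calls became 266 when every gene with at least 1 count was kept and 174 under DESeq2; the cause was not tested. Omission of single libraries gave 1458 to 2075 calls with TNFα, 1578 to 2666 with vehicle and 51 to 156 for the interaction (156 without mutant vehicle replicate 1, 66 without mutant vehicle replicate 2 and 51 without mutant TNFα replicate 3). With the replicate number as a block the counts were 1741, 2072 and 74. Within a treatment, same-numbered control and mutant libraries deviated with correlations of -0.076 to 0.0096, so no pairing by number showed between the genotypes. Vehicle libraries were not compared in this way with TNFα libraries of the same number, and the interaction fit takes all 16 as independent. The block ended the calls of Cdh5, Tnnc2, Uty, Igfbp5, Prss35 and Nuak1. In the fit to all 16 libraries Ccl20, Cxcl3, Icam1, mt-Rnr1, mt-Rnr2 and Gas7 were no longer called. A surrogate variable ended the calls of Notch2, Birc5 and Prss35, DESeq2 those of Prss35 and Nuak1, and RLE factors or filterByExpr that of Nuak1. Beside the mitochondrial transcripts, some counts of list members called moved by over 1.5 times in settings other than omissions. Hypertrophic rises went from 1 to 2 under DESeq2, with no filter beyond 1 count and with the block, which also took hypertrophic falls from 5 to 3, Wnt falls from 6 to 3 and cartilage matrix rises from 2 to 1. Fibroblast falls went from 2 to 1 under DESeq2, with the block, with a surrogate variable and in the fit to all 16 libraries, and 1 endothelial marker fell under DESeq2, with no filter, with the block and in that fit. The fit to all 16 libraries also took chemokines to 5 rises and 0 falls, NF-κB targets to 3 and 2 and smooth muscle falls to 0. Secretory granule falls went to 1 with filterByExpr and complement falls to 1 with a surrogate variable. The shallowest library, mutant replicate 4, limits genes under 1 CPM to about 3 counts there.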
